A study of Homo sapiens with 36 samples.

Results

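The comparison of HCT116 cells whose UHRF1 and DNMT1 proteins can both be degraded with HCT116 cells carrying neither tag, after 8 days of treatment, rested on 6 of the 36 RNA-seq libraries of the series. The 3 libraries labelled UHRF1-AID/DNMT1-AID on day 8 were set against the 3 labelled WT on day 8, and the members were chosen by those labels. HCT116 is an established colorectal cancer cell line. All 4 lines of the series, the WT included, express the plant ubiquitin ligase OsTIR1 under a promoter induced by doxycycline (Dox), and UHRF1/DNMT1-AID cells carry a mini auxin-inducible degron (AID) tag on both UHRF1 and DNMT1. Both groups received the same agents, 2 µg/mL Dox with 20 µM of the auxin antagonist auxinole for a day and then 2 µg/mL Dox with 500 µM auxin. Whether the groups responded alike to these agents was not tested. UHRF1-AID and DNMT1-AID cells of day 8, with 1 tag each, and the WT and UHRF1/DNMT1-AID cells of day 6 were used beside them, with 3 libraries each. The study's reporting summary speaks of generally 3 clones for an AID group, and the labels name no clone, so the p-values measure the spread between these libraries and a difference between clones and an effect of depletion cannot be told apart. No library from before the treatment was analysed here.

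UHRF1 recognises the hemimethylated DNA left behind by the replication fork and recruits DNMT1, the methyltransferase that copies the methylation onto the new strand. When this maintenance fails, methylation is diluted with each division, and promoters that it keeps silent, such as those of germline genes, can become active. Loss of methylation is also known to release transposable elements, whose double-stranded RNA can be sensed as if it were viral and start an interferon response.

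The 3 WT libraries held from 22240537 to 30559549 reads and the 3 UHRF1/DNMT1-AID libraries from 22808459 to 29839674. Levels are given as CPM, read counts on library sizes scaled by TMM, and fold changes are those of UHRF1/DNMT1-AID over WT, on the log2 scale with the standard error, from edgeR's quasi-likelihood test with Benjamini-Hochberg adjustment. A gene rose or fell where the adjusted p was under 0.05, and it was counted as up or down where it also changed more than 2-fold. Counts over a gene list cover its members that passed the filter on low counts, and a member at 0 reads in WT passed only through groups in which it was read. UHRF1/DNMT1-AID replicate 3 stood somewhat apart, since its counts differed from those of the other two by a chi-squared per degree of freedom of 28.3 and 36.6, against 11.1 between replicates 1 and 2 and at most 8.58 between WT libraries. The degron removes protein, so the mRNA of the targeted genes does not check the labels: UHRF1 was read at 148, 151 and 147 CPM in WT and 67.2, 39.3 and 75.6 in UHRF1/DNMT1-AID, and DNMT1 at 191, 210.1 and 195 and 53.4, 46.2 and 32.6. Both transcripts were lower in all 3 UHRF1/DNMT1-AID libraries than in any WT library. General epithelial markers were read in both groups, with EPCAM at 337, 314 and 317 CPM in WT and 433, 441 and 479 in UHRF1/DNMT1-AID. Of the markers closer to colon, CDX2 had 1772 reads over WT and 7660 over UHRF1/DNMT1-AID, but CDX1 had 0 and 181, LGALS4 1 and 37, CDH17 9 and 31, and GPA33 6 and 2.

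Of the 15415 protein-coding genes tested, 2614 were up in UHRF1/DNMT1-AID, which is 17.0% of them, and 1180 were down, which is 7.65%. At any fold, 35.7% rose and 32.8% fell. The libraries of the groups did not overlap for 10763 of the 15415 genes tested. This held for 2494 of the genes up and 1161 of the genes down. A lack of overlap, as given for single genes below, therefore does not by itself set a gene apart. Upward calls made up 68.9% of all calls, or 54.8% with scaling by library size only, which moved the log2 fold changes by a median of -0.187. The genes up were mostly genes that WT cells hardly read. Their median level was 0.316 CPM in WT and 3.51 CPM in UHRF1/DNMT1-AID. Of the 465 genes tested that had no read in any WT library, 462 were up. Such genes passed the filter only through groups in which they were read, so this count follows largely from the filter. The genes down were mostly well expressed, with a median of 26.9 CPM in WT and 10.4 CPM in UHRF1/DNMT1-AID. Changes of more than 16-fold were fitted for 924 of the genes up and for 12 of the genes down. Genes up took 8.86% of the CPM in WT and 24.4% in UHRF1/DNMT1-AID. The genes up were also shorter and richer in GC (median 3534.5 bases and 55.6%) and the genes down longer and poorer in GC (5763 bases and 43.8%) than all genes tested (4997 bases and 49.5%). With an offset for GC content and length, 2431 genes were up and 1050 down, but these were partly other genes. Of the 2614 genes up without the offset, 2111 were up with it, and of the 1180 genes down, 677 were down with it.

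**Figure D1:**
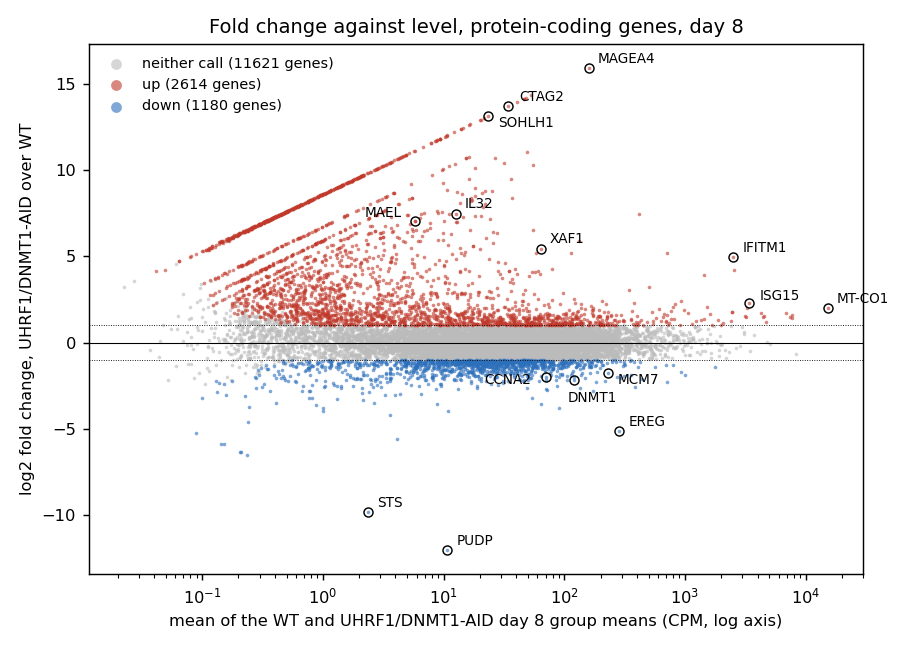
Log2 fold change of UHRF1/DNMT1-AID over WT on day 8 (vertical axis) against the mean of the group means in CPM (horizontal log axis), with 1 point per protein-coding gene tested, up genes in red, down genes in blue, others in grey, and dotted lines at a 2-fold change. The steep bands at the upper left are genes with no or few WT reads, whose fitted value depends on the prior count, and the genes down lie mostly below 4-fold.

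The genes up were unevenly spread over the chromosomes. On the X chromosome 29.8% of the genes tested were up and 7.76% were down, and on chromosome 19 the shares were 24.4% and 2.73%. Chromosome 22 had 20.2% up. Chromosomes 18 and 13 went the other way, with 5.76% up and 12.6% down on the former and 11% up and 12.2% down on the latter. Chromosome 19 is rich in GC and chromosomes 13 and 18 are poor in it, but GC content was not computed per chromosome. Whether the shares go with the GC content described above was not tested.

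**Figure D2:**
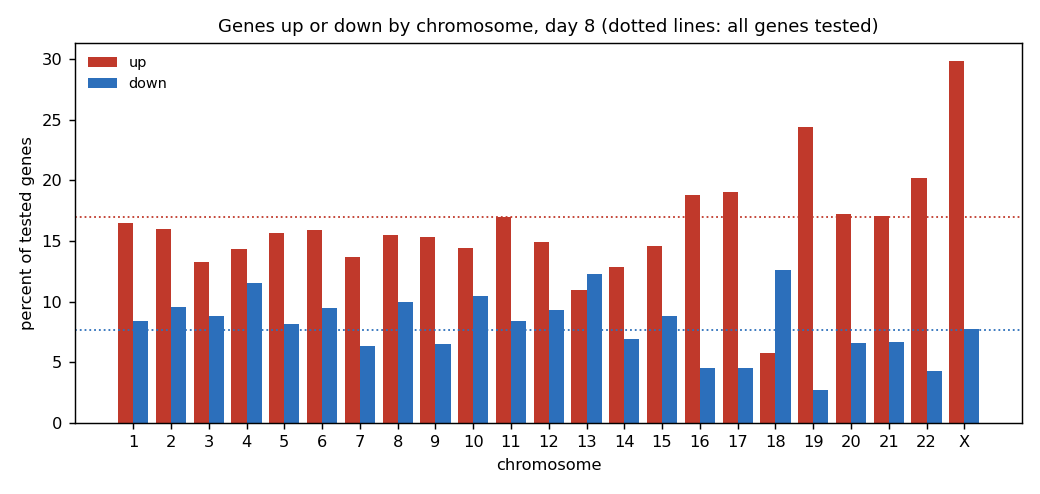
Percent of the genes tested on each chromosome that were up (red) or down (blue) in UHRF1/DNMT1-AID against WT on day 8, with lines at the shares over all genes. The X chromosome reached 29.8% up and chromosome 19 24.4%, against 17.0% over all genes.

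Germline genes were among the highest fold changes. The MAGE family and the other cancer-testis antigens are genes normally read in testis and placenta, many of them on the X chromosome, whose products are seen as antigens when tumours express them. Of the 24 MAGE genes listed, 19 passed the filter on low counts, and of these 11 had 0 reads in WT, so they passed only through the groups in which they were read. 16 rose and 2 fell. Without the filter, 17 rose and 2 fell among the 23 MAGE genes with a read. Of the 59 other cancer-testis antigens listed, 42 of the 43 that passed rose and 1 fell, and 26 had 0 reads in WT. Without the filter, 47 rose and 1 fell among 57. Their summed level went from 171 to 176 CPM over the WT libraries to 1009 to 1205 CPM over the UHRF1/DNMT1-AID libraries.

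MAGEA9 (ENSG00000123584.7, chromosome X, 149781930 to 149787737 on GRCh38) was read at 0, 0 and 0 CPM in WT and at 74.7, 103 and 111 in UHRF1/DNMT1-AID, and MAGEA9B at 0, 0 and 0 and 63.5, 86.2 and 92.3. Taking 3 reads over the group as the floor for WT, this was at least 2397-fold higher for MAGEA9 (adjusted p 2.85e-21) and at least 2012-fold higher for MAGEA9B (adjusted p 1.62e-21). These are near-identical copies, and reads shared by them make their separate values uncertain. MAGEA11, which encodes a coregulator of the androgen receptor, went from no read in WT to 21.5, 24.1 and 27.4 CPM, at least 603-fold higher (adjusted p 9.28e-20). MAGEA12 was at 0.137, 0.045 and 0.101 CPM in WT and 28.4, 36.1 and 36.8 in UHRF1/DNMT1-AID (log2 fold change 8.4 ± 0.37, adjusted p 8.79e-19). The exceptions were MAGEA2 and MAGEA2B, another near-identical pair, which WT cells already expressed. MAGEA2 fell from 69.8, 64 and 63.2 CPM to 49.1, 43.7 and 48.1 (log2 fold change -0.48 ± 0.09, adjusted p 7.25e-06), and no UHRF1/DNMT1-AID library reached the lowest WT library.

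The promoter of MAGEA9B is shown because it belongs to the germline gene of smallest p that had a promoter in the RefSeq table (build GRCh38.p14). It spans 250 bases before to 50 bases after the start at chrX:149587410-149587709, minus strand, and is written 5′ to 3′ with each CG, the dinucleotide that DNMT1 methylates, in capitals.
MAGEA9B: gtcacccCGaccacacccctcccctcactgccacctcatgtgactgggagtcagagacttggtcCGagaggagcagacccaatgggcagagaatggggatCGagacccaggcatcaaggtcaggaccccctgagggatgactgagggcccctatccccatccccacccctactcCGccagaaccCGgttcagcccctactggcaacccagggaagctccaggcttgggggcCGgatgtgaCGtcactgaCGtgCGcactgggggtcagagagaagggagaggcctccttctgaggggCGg
It holds 10 CG. Over 300-base windows around the canonical starts of 15401 of the genes tested (hg38), the median was 26 CG. It was 14 for the MAGE family, 13 for the other cancer-testis antigens, 18 for the genes up and 26 for the genes down. Among genes at 1 CPM or less in WT the medians were closer, at 14 for the 1630 that were up and 11 for the 785 that were not. The CG content is a description of the reference sequence, and no methylation was measured in these libraries.

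Among the other cancer-testis antigens, XAGE1B and its copy XAGE1A had no read in WT and 74.7, 108 and 95 CPM and 74.3, 108 and 95 CPM in UHRF1/DNMT1-AID. CTAG1B, which encodes the antigen NY-ESO-1, had no WT read and 24.3, 40.6 and 35.4 CPM, at least 836-fold higher (adjusted p 5.59e-14), and it too has a near-identical copy, CTAG1A. All 3 UHRF1/DNMT1-AID libraries were above all WT libraries for each of these genes. SSX1, a transcriptional repressor of the germline that is fused to SS18 in synovial sarcoma, was at 0.137, 0.09 and 0.0675 CPM and 17.5, 17.9 and 18.8 (log2 fold change 7.49 ± 0.43, adjusted p 1.66e-16). PAGE2B had 2 reads over WT and 15, 21.5 and 23.2 CPM in UHRF1/DNMT1-AID (ratio of reads 746, 95% counting interval 206 to 6167). SPAG9, a scaffold protein of JNK signalling that is expressed in many tissues, was the only member that fell, from 69.6, 68.4 and 67.8 CPM to 53.5, 52.9 and 56.2 (log2 fold change -0.34 ± 0.08, adjusted p 0.00031), and with the offset for GC content and length its value was 0.23.

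Genes of meiosis and of the piRNA pathway, which silences transposons in germ cells, divided. Of the 66 listed, 46 were tested, 28 rose and 6 fell. Without the filter, 32 rose and 6 fell among 62. SOHLH1, a transcription factor of early germ cell differentiation, had no WT read and 30.5, 53.4 and 55.4 CPM in UHRF1/DNMT1-AID, at least 1168-fold higher (adjusted p 1.05e-14). MAEL, of the piRNA pathway, was at 0.0915, 0 and 0.135 CPM in WT and 9.33, 9.62 and 15.8 in UHRF1/DNMT1-AID (log2 fold change 7.07 ± 0.52, adjusted p 2.27e-13). TDRD12, a helicase of the same pathway, was at 0, 0.135 and 0.169 and 4.59, 6.63 and 7.37 (log2 fold change 5.78 ± 0.46, adjusted p 5.53e-13). In all 3 of these genes replicate 1 was the lowest of the UHRF1/DNMT1-AID libraries, and each library was above every WT library. DPEP3, a dipeptidase of the testis, had no WT read and 13.4, 21.7 and 17.7 CPM, at least 438-fold higher (adjusted p 2.53e-15). YTHDC2, an RNA helicase needed for entry into meiosis that is also expressed in dividing somatic cells, fell from 26, 30 and 28.4 CPM to 16, 12.8 and 10.5 (log2 fold change -1.11 ± 0.12, adjusted p 7.54e-10). MSH5, a MutS homologue of meiotic crossovers, fell from 8.93, 7.96 and 9.08 to 5.55, 3.78 and 2.7 (log2 fold change -1.13 ± 0.22, adjusted p 4e-05). For both, every UHRF1/DNMT1-AID library lay below every WT library.

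**Figure D3:**
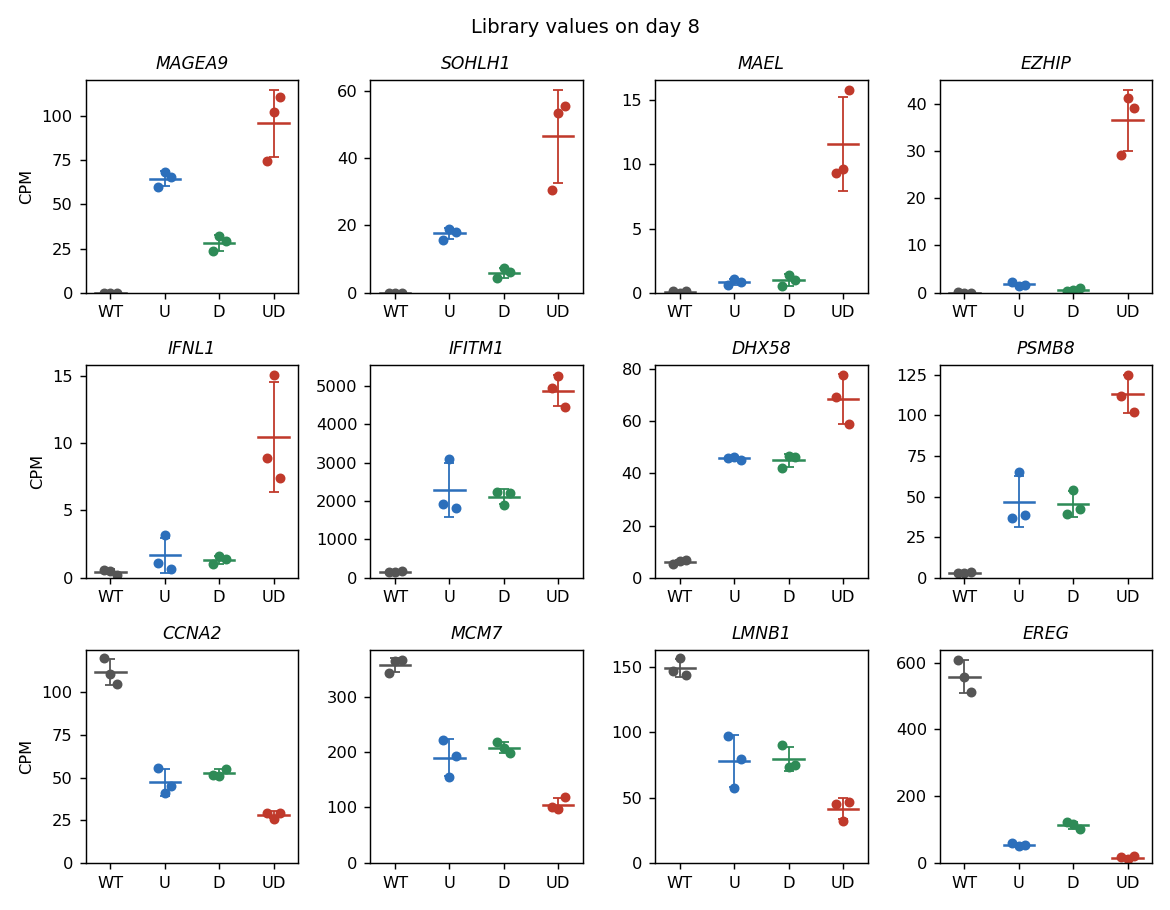
CPM of 12 genes in each library of day 8 (vertical axes differ between panels), with 1 point per library in WT, UHRF1-AID (U), DNMT1-AID (D) and UHRF1/DNMT1-AID (UD), a bar at the mean and an error bar of 1 SD (n = 3). Germline genes such as MAGEA9 and SOHLH1 lie at 0 in WT, and CCNA2 and MCM7 are lowest in UD.

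Other genes silent in WT rose far as well. PNMA5, a gag-like gene derived from a retrotransposon, had no WT read and 80.9, 134 and 107 CPM in UHRF1/DNMT1-AID, at least 2670.2-fold higher (adjusted p 3.05e-15). UCHL1, a deubiquitinating enzyme of neurons and germ cells, had no WT read and 33.6, 41 and 56.1 CPM, at least 1090.5-fold higher (adjusted p 1.09e-17). TXNIP, an inhibitor of thioredoxin that limits glucose uptake, also had no WT read and 35.5, 30.9 and 20.9 CPM (adjusted p 6.62e-10), with replicate 3 the lowest. Of 16 genes derived from retroviruses or retrotransposons, 12 rose and 3 fell, or without the filter 14 rose and 3 fell among 24. RTL8C rose from 51.4, 61.7 and 59.1 CPM to 138, 152 and 168 (log2 fold change 1.41 ± 0.11, adjusted p 2.06e-13), whereas RTL6 fell from 77.4, 83.3 and 79.8 to 27.9, 30.9 and 28.7 (log2 fold change -1.46 ± 0.09, adjusted p 1.36e-15).

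Of the 52 listed genes known to be hypermethylated in colorectal cancer, 35 were tested, 22 rose and 4 fell, with a median log2 fold change of 1.16, and 5 of those tested had 0 reads in WT. Without the filter, 24 rose and 4 fell among 49. SPARC, a matricellular glycoprotein, went from 0.0458, 0.09 and 0.101 CPM to 79.5, 120.1 and 131 (log2 fold change 10.31 ± 0.71, adjusted p 2.59e-12). UNC5C, a netrin receptor, had 1 read over WT and 16.1, 22.1 and 21.3 CPM in UHRF1/DNMT1-AID (ratio of reads 1479, 95% counting interval 265 to 58469). The endodermal transcription factors GATA4 and GATA5 had no WT read and reached 7.29, 7.68 and 4.87 CPM and 6.57, 10.5 and 7.61 CPM. SFRP1, a secreted Wnt antagonist, had 1 WT read and 3.41, 5 and 6.24 CPM (ratio of reads 368, 95% counting interval 65.6 to 14585). HLTF, a helicase-like factor of fork remodelling that WT cells expressed, fell from 69.7, 61.1 and 63.9 to 28.7, 25.9 and 25.6 (log2 fold change -1.28 ± 0.09, adjusted p 3.77e-14).

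The imprinted genes, which are read from a single parental copy and are marked by methylation, moved less uniformly. 18 of the 36 rose and 8 fell, and 8 of those that rose were up by more than 2-fold. NNAT rose from 0.137, 0.18 and 0.27 CPM to 10.2, 14 and 11.9 (log2 fold change 5.86 ± 0.39, adjusted p 9.06e-15), FAM50B from 0.137, 0.27 and 0.27 to 8.1, 9.45 and 14.1 (log2 fold change 5.49 ± 0.40, adjusted p 5.84e-14), and KCNK9, a potassium channel, from 1.33, 1.17 and 1.59 to 11.5, 8.99 and 8.54 (log2 fold change 2.81 ± 0.28, adjusted p 1.41e-10). CDKN1C, an imprinted inhibitor of cyclin-dependent kinases, was at 31.4, 35.4 and 31.3 CPM in WT and 112, 223 and 121 in UHRF1/DNMT1-AID (log2 fold change 2.22 ± 0.17, adjusted p 9.78e-13), with replicate 2 well above the other two. IGF2, the imprinted growth factor, rose from 139, 159 and 153 to 268, 393 and 268 (log2 fold change 1.04 ± 0.20, adjusted p 5.09e-05). No library of the groups overlapped for these genes. UBE3A fell from 79.8, 73.2 and 74.8 to 43.3, 50.3 and 51.7 (log2 fold change -0.65 ± 0.08, adjusted p 1.4e-08), and the offset for GC content and length brought its value to 0.0027.

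The clustered protocadherins, adhesion proteins of neurons read from alternative promoters, rose in 33 of 49 members and fell in 1. The genes of the gamma cluster share their last exons and gave almost the same reads, as with PCDHGB1 at 16.8, 18.7 and 18.4 CPM and 41.5, 48 and 35.2 (log2 fold change 1.21 ± 0.22, adjusted p 1.3e-05), so they do not count as separate observations. PCDHB2, whose coding part is a single exon of its own, had no WT read and 2.24, 3.07 and 4.07 CPM, at least 78.5-fold higher (adjusted p 2.01e-07). Of 37 HOX genes, 15 rose and 10 fell. HOXC10 rose from 2.24, 1.89 and 1.65 to 7.34, 6.89 and 10.8 (log2 fold change 2.12 ± 0.26, adjusted p 1.33e-08) and HOXA9 fell from 131, 128 and 129 to 45.7, 49.97 and 47.1 (log2 fold change -1.44 ± 0.10, adjusted p 6.78e-15). With the offset for GC content and length, 11 rose and 15 fell.

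Zinc finger genes of chromosome 19, many of which encode KRAB repressors of transposons, rose in 53 of 173 and fell in 26. Those of the other chromosomes rose in 57 of 253 and fell in 72. These splits depended on the scaling, since 40 rose and 37 fell on chromosome 19 with library size only, and 83 rose and 50 fell on the other chromosomes with the offset for GC content and length. ZNF714 fell from 13.3, 13.8 and 13.7 CPM to 5.3, 3.15 and 2.74 (log2 fold change -1.88 ± 0.17, adjusted p 1.3e-11) and ZNF296 rose from 10.8, 13.8 and 11.3 to 37.3, 41.1 and 39.2 (log2 fold change 1.71 ± 0.13, adjusted p 1.47e-13).

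Of 21 genes of DNA methylation, 14 fell and 2 rose, and with the offset for GC content and length 4 rose and 10 fell. HELLS, the remodeller that opens nucleosomes for methylation, went from 48.1, 47.7 and 46.6 CPM in WT to 17.9, 13.6 and 18 in UHRF1/DNMT1-AID (log2 fold change -1.53 ± 0.13, adjusted p 3.76e-12). Its partner CDCA7 went from 37, 31.6 and 32.7 to 9.58, 3.36 and 8.58 (log2 fold change -2.24 ± 0.20, adjusted p 2.61e-11). Neither gene had overlapping libraries, and both are also known to be read mainly in cycling cells. MBD2, a reader of methylated DNA, rose from 49.7, 50.8 and 55.6 to 76.4, 69.7 and 71.5 (log2 fold change 0.48 ± 0.08, adjusted p 2.36e-06). In the list of Polycomb complex 2, which writes H3K27 methylation, and its inhibitor EZHIP, 3 of the 13 rose and 7 fell. With the offset 5 rose and 6 fell. EZHIP itself was at 0.0915, 0 and 0 CPM in WT and 29.1, 41.3 and 39 in UHRF1/DNMT1-AID. The catalytic subunit EZH2 fell from 48.3, 48 and 48.4 CPM to 28.1, 19 and 24.6 (log2 fold change -1.02 ± 0.11, adjusted p 4.39e-10), SUZ12 from 73.6, 75.5 and 69.4 to 37, 36.5 and 41.9 (log2 fold change -0.92 ± 0.08, adjusted p 8.92e-12), and PHF1, an accessory subunit, rose from 33.5, 35.3 and 35.1 to 64.5, 74 and 66.6 (log2 fold change 0.98 ± 0.08, adjusted p 9.87e-13).

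Among 18 genes that silence retroelements or remove their nucleic acids, 4 rose and 8 fell. The H3K9 methyltransferase SUV39H1 fell from 25.3, 23.6 and 21.7 CPM to 6.93, 9.03 and 7.29 (log2 fold change -1.6 ± 0.13, adjusted p 2.04e-12), CBX5, which encodes the heterochromatin protein HP1-alpha, from 115, 129 and 111 to 39.3, 36.3 and 50.04 (log2 fold change -1.49 ± 0.16, adjusted p 4.08e-09), and TASOR, of the HUSH complex, from 60.3, 56.4 and 58.5 to 30.4, 28.3 and 32.3 (log2 fold change -0.94 ± 0.09, adjusted p 1.39e-11). Those named here among the 4 that rose degrade nucleic acids or nucleotides. The exonuclease TREX1 rose from 13.8, 16.2 and 12.8 to 35.1, 40.9 and 26.9 (log2 fold change 1.26 ± 0.13, adjusted p 4.57e-10), though with the offset for GC content and length it did not pass (0.28, adjusted p 0.0799), and the nucleotidase SAMHD1 from 94.3, 105 and 96.5 to 176, 188 and 189.7 (log2 fold change 0.90 ± 0.10, adjusted p 8.22e-10).

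Lambda interferons are the epithelial interferons, induced when viral nucleic acid is sensed. IFNL1 was at 0.595, 0.495 and 0.236 CPM in WT and 8.92, 15.1 and 7.41 in UHRF1/DNMT1-AID (log2 fold change 4.59 ± 0.49, adjusted p 4.7e-10), IFNL2 at 0.366, 0.315 and 0.27 and 2.09, 3.61 and 2.86 (log2 fold change 3.17 ± 0.51, adjusted p 1.46e-06), and IFNL3 at 0.412, 0.225 and 0.405 and 3.06, 5.37 and 2.66 (log2 fold change 3.38 ± 0.55, adjusted p 1.71e-06). Replicate 2 was the highest for each, and all libraries were above WT, but IFNL2 and IFNL3 are close copies whose reads may be shared. Of their receptor subunits, IFNLR1 went from 16.2, 18.4 and 17.1 CPM to 16.5, 13.8 and 14.9 and did not pass (adjusted p 0.206), and IL10RB rose from 32.6, 34 and 32 to 44.3, 45.6 and 44.3 (log2 fold change 0.44 ± 0.09, adjusted p 3.2e-05). Over the 17 ligands, receptors and JAK-STAT genes, 9 rose and 3 fell, or with library size only 8 rose and 7 fell.

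Upstream, nucleic acid sensors moved in both directions, with 15 of 26 genes higher and 6 lower. CGAS, the cytosolic DNA sensor, was at 0.183, 0 and 0.0337 CPM in WT and 4.84, 3.19 and 5.52 in UHRF1/DNMT1-AID (log2 fold change 5.94 ± 0.61, adjusted p 5.97e-10), and DHX58, a helicase of the RIG-I family, at 5.45, 6.34 and 6.85 and 69.2, 77.7 and 58.9 (log2 fold change 3.46 ± 0.16, adjusted p 9.12e-19). Of the adaptors, MAVS, which relays RNA sensing, fell from 129, 150.3 and 142 to 81, 73.2 and 74.2 (log2 fold change -0.88 ± 0.12, adjusted p 1.52e-07) and STING1, which relays DNA sensing, was at 25.1, 29.7 and 27 and 22.3, 20.4 and 17.8 (adjusted p 0.0578). STING1 passed as lower with library size only (-0.62, adjusted p 0.00772), with the offset for GC content and length (-0.61, adjusted p 0.00749), with the replicate block (-0.44, adjusted p 0.0399) and with the comparison libraries only (-0.40, adjusted p 0.00708). Of the 7 interferon regulatory factors, 6 rose and 1 fell. IRF7, which amplifies the response, rose from 124, 123 and 134 CPM to 631, 697 and 557 (log2 fold change 2.31 ± 0.15, adjusted p 1.26e-14), and IRF5 fell from 24.9, 25.2 and 23.9 to 20.5, 19.9 and 19.4 (log2 fold change -0.30 ± 0.09, adjusted p 0.00462).

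Downstream, 72 of 87 interferon-stimulated effectors rose and 4 fell, with a median log2 fold change of 1.5 against 0.03 over all genes tested. Their summed level was 12385 to 12533 CPM over the WT libraries and 39082 to 46393 CPM over the UHRF1/DNMT1-AID libraries. IFITM1, a membrane protein that blocks viral entry, went from 149, 162 and 165 CPM to 4944, 5256 and 4441 (log2 fold change 4.94 ± 0.23, adjusted p 1.63e-16). IFI27 went from 184, 161 and 177 to 2364, 2951 and 2756 (log2 fold change 3.95 ± 0.32, adjusted p 5.46e-11), and the ubiquitin-like modifier ISG15 from 1167, 1119.6 and 1159 to 5194, 6008 and 5616 (log2 fold change 2.29 ± 0.23, adjusted p 2.44e-09). XAF1, a proapoptotic factor, was at 3.07, 2.74 and 2.83 and 159, 132 and 85 (log2 fold change 5.44 ± 0.25, adjusted p 2.01e-16). APOBEC3G, an antiviral cytidine deaminase, was at 0.0458, 0.045 and 0.202 and 38.4, 40.6 and 24.4 (log2 fold change 8.25 ± 0.41, adjusted p 3.24e-17), and the synthetase-like OASL at 61.7, 61.4 and 63.9 and 296, 329 and 195 (log2 fold change 2.13 ± 0.22, adjusted p 3.58e-09). Replicate 3 was the lowest UHRF1/DNMT1-AID library for IFITM1, XAF1, APOBEC3G and OASL, and each of its values was still above every WT library. The members that fell were led by HERC6, a ubiquitin ligase, from 54.6, 53.6 and 51.3 to 25.7, 26 and 24.9 (log2 fold change -1.06 ± 0.11, adjusted p 2.33e-10), and TRIM25, a ligase that activates RIG-I, from 172, 190.0 and 173 to 98.9, 89.4 and 88 (log2 fold change -0.95 ± 0.09, adjusted p 4.58e-11).

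The promoter of IFITM1 was chosen from the RefSeq table. Of the named interferon-stimulated genes whose RefSeq window held the letters of the interferon-stimulated response element (ISRE), IFITM1 had the smallest p. DHX58 and APOBEC3G had a smaller p and held the letters in the windows around canonical starts counted below, but were not picked from the RefSeq table. It lies at chr11:313790-314089 on the plus strand (RefSeq, GRCh38.p14), and capitals mark the matches to GAAANNGAAA.
IFITM1: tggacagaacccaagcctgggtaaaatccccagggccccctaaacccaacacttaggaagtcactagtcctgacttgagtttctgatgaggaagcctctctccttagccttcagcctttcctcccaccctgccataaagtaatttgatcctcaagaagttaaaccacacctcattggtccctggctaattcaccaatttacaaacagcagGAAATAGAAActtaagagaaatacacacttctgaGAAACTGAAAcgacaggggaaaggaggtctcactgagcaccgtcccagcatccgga
The first match, GAAATAGAAA, begins 40 bases before the start and the last, GAAACTGAAA, 6 bases before it. Searched on both strands with overlaps allowed, the letters stood in the windows of 56 of the 87 interferon-stimulated effectors, which is 64.4%, and in 446 of 15401 genes tested, which is 2.9%. They stood in 4.27% of the genes up and 2.29% of the genes down. Among the effectors, 45 of the 56 with the letters rose, with a median log2 fold change of 1.57, and 27 of the 31 without them rose, with a median of 1.35. A match is a run of letters, and binding was not measured.

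Transcripts of genes for peptide presentation by MHC class I mostly rose too, while presentation itself was not measured. 23 of 29 members rose and 2 fell. HLA-E, a ligand of inhibitory receptors of natural killer cells, went from 451, 443 and 461 CPM to 1198, 1380.1 and 965 (log2 fold change 1.39 ± 0.11, adjusted p 5.79e-13). PSMB8, a catalytic subunit of the immunoproteasome, went from 2.79, 2.79 and 3.61 to 112, 125 and 102 (log2 fold change 5.19 ± 0.26, adjusted p 3.35e-16), and the proteasome activator PSME2 from 183, 179 and 191 to 349.8, 339 and 375 (log2 fold change 0.95 ± 0.08, adjusted p 2.07e-12). Every UHRF1/DNMT1-AID library was above every WT library for these 3 genes. ULBP1, a ligand that alerts natural killer cells through NKG2D, fell from 9.61, 8.91 and 9.14 to 4.54, 4.37 and 5.64 (log2 fold change -0.92 ± 0.22, adjusted p 0.000402).

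In the NF-kappa B pathway, 12 of 24 genes rose and 4 fell. NFKB2 rose from 99.2, 101 and 99.2 CPM to 288, 314 and 263 (log2 fold change 1.53 ± 0.10, adjusted p 8.94e-15) and its partner RELB from 24.9, 26.4 and 24.6 to 46.4, 44.5 and 58.9 (log2 fold change 0.98 ± 0.11, adjusted p 1.56e-09), both of the non-canonical arm, although RELB did not pass with the offset for GC content and length (0.24, adjusted p 0.0511), while NFKB1, of the canonical arm, fell from 40.2, 41.9 and 37 to 19, 14.8 and 19.97 (log2 fold change -1.15 ± 0.12, adjusted p 4.83e-10). BIRC2, which restrains the non-canonical arm, fell from 52.5, 45 and 47.4 to 27.9, 25.4 and 31.8 (log2 fold change -0.77 ± 0.09, adjusted p 5.56e-09). The inhibitor NFKBIA rose from 27.1, 21.8 and 24.9 to 67.3, 59.1 and 71.7 (log2 fold change 1.43 ± 0.13, adjusted p 1.62e-11), and the adhesion molecule ICAM1 from 0.137, 0.495 and 0.304 to 21.3, 21.8 and 15.5 (log2 fold change 5.94 ± 0.30, adjusted p 1.15e-17).

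Among 24 chemokines and cytokines, 14 rose and 3 fell, or without the filter 17 rose and 4 fell among 44. IL32, a proinflammatory cytokine, was at 0.229, 0.18 and 0.0337 CPM and 23.7, 31.6 and 20.1 (log2 fold change 7.47 ± 0.41, adjusted p 1.08e-16), CCL5, which attracts T cells, at 0.87, 0.63 and 0.742 and 8.92, 12.5 and 9.5 (log2 fold change 3.78 ± 0.43, adjusted p 2.02e-09), and TNFSF9, the ligand of 4-1BB, at 51.9, 51.3 and 51 and 147, 165 and 153 (log2 fold change 1.59 ± 0.11, adjusted p 4.45e-14). IL1RN, the antagonist of the IL-1 receptor, fell from 4.07, 5.71 and 5.74 to 1.43, 0.336 and 0.926 (log2 fold change -2.56 ± 0.32, adjusted p 1.5e-08). Of the 86 tested genes of the SenMayo list, which gathers secreted factors of senescent cells, 45 rose and 22 fell, with a median of 0.58. Its leading members were TNFRSF1B, a receptor of TNF, at 0.87, 0.36 and 0.742 CPM and 45.8, 64.4 and 54.6 (log2 fold change 6.36 ± 0.25, adjusted p 1.4e-19), and the complement component C3, at 0.412, 0.855 and 0.911 and 14.6, 18.4 and 9.98 (log2 fold change 4.26 ± 0.25, adjusted p 2.98e-16).

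Matrix proteases and their inhibitors rose in 17 of 27 and fell in 4. The collagenases MMP13 and MMP1 were at 0, 0.18 and 0.0675 CPM and 0, 0.09 and 0.101 CPM in WT and at 14.4, 12.5 and 11.5 and 4.59, 6.89 and 6.12 in UHRF1/DNMT1-AID (log2 fold change 7.21 ± 0.50, adjusted p 5.49e-14 for MMP13). TIMP1, their inhibitor, rose from 325, 378 and 351 to 1118, 1064 and 1018 (log2 fold change 1.6 ± 0.10, adjusted p 6.93e-16). The urokinase PLAU fell from 26.1, 27.1 and 24.3 to 11.6, 9.2 and 11.6 (log2 fold change -1.26 ± 0.20, adjusted p 1.73e-06), and MMP7, which was low in WT at 0.458, 0.36 and 0.439 CPM, had 0 reads in UHRF1/DNMT1-AID. In the IGF axis, 7 of the 13 rose and 4 fell. The binding protein IGFBP4 had no WT read and 5.61, 10.2 and 10.9 CPM, at least 224-fold higher (adjusted p 1.84e-09). IGFBP3 was at 0.183, 0 and 0.0675 and 7.95, 7.94 and 6.92 (log2 fold change 6.45 ± 0.77, adjusted p 3.24e-08).

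Of the 23 TNF receptors and related genes, 13 rose and 3 fell, or with library size only 12 rose and 7 fell. TNFRSF14, which T cells meet through its ligand LIGHT, had 1 WT read and 7.13, 9.32 and 7.01 CPM in UHRF1/DNMT1-AID (ratio of reads 579, 95% counting interval 103 to 22901). NGFR, the low-affinity receptor of neurotrophins, rose from 45.3, 50.4 and 50.1 to 204, 289 and 195 (log2 fold change 2.24 ± 0.13, adjusted p 1.04e-15). The death receptor FAS fell from 14.5, 15.1 and 17.4 to 10.3, 8.9 and 10.5 (log2 fold change -0.66 ± 0.13, adjusted p 5.54e-05), a call lost with the offset for GC content and length (-0.19, adjusted p 0.246). Groups did not overlap for these 3 receptors.

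Genes of DNA replication and mitosis fell almost without exception, and in bulk samples fewer dividing cells and less RNA per cell cannot be told apart. All 50 replication genes tested fell, 32 of them by more than 2-fold, with a median log2 fold change of -1.15. MCM7 (chromosome 7, 100092233 to 100101940), a subunit of the replicative helicase, went from 342, 363 and 366 CPM to 100.4, 97.3 and 118 (log2 fold change -1.76 ± 0.10, adjusted p 5.82e-17), and MCM6, of the same helicase, from 157, 154 and 158 to 60.6, 55.5 and 67.2 (log2 fold change -1.35 ± 0.08, adjusted p 6.24e-16). RRM2, which makes deoxynucleotides, went from 442, 437 and 433 to 106, 93 and 127 (log2 fold change -2.01 ± 0.11, adjusted p 1e-16). For each the UHRF1/DNMT1-AID libraries lay close together and far below WT. The clamp loader subunit RFC3 went from 34.4, 30 and 30.1 to 10.1, 10.2 and 9.26 (log2 fold change -1.67 ± 0.10, adjusted p 2.58e-16).

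The promoter of MCM7, the replication gene of smallest p, is shown for contrast with that of MAGEA9B. It lies at chr7:100101348-100101647 on the minus strand (RefSeq, GRCh38.p14), with each CG in capitals.
MCM7: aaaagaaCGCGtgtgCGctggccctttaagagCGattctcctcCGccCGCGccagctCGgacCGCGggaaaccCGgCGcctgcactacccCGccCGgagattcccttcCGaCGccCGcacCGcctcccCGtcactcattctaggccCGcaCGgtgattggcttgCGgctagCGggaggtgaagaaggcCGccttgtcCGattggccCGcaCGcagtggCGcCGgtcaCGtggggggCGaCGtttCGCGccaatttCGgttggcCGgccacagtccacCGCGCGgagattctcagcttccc
It holds 39 CG, and the median over the 50 replication genes was 29.5.

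In mitosis, 59 of 60 genes fell and 0 rose, with a median of -1.34. ECT2, which positions the contractile ring, went from 91, 81.2 and 79 CPM to 17.9, 18 and 24.2 (log2 fold change -2.06 ± 0.10, adjusted p 9.04e-19). The checkpoint kinases BUB1 and BUB1B went from 83.9, 86.3 and 82.2 to 22.5, 19.7 and 27.9 (log2 fold change -1.84 ± 0.10, adjusted p 1.31e-16) and from 59.5, 65.5 and 59.3 to 15.9, 13.7 and 17.3 (log2 fold change -1.97 ± 0.11, adjusted p 7.35e-17). PLK1, the kinase of mitotic entry, went from 155, 183 and 167 to 46.3, 36.5 and 49.8 (log2 fold change -1.93 ± 0.11, adjusted p 1.66e-16). Every library of UHRF1/DNMT1-AID was below every WT library for these genes. Cyclins and their kinases fell in 22 of 26, among them CCNA2 from 120.2, 111 and 105 to 29.5, 25.8 and 29.5 (log2 fold change -1.99 ± 0.10, adjusted p 2.46e-18), CDK2 from 102, 95.7 and 101 to 35.1, 33.5 and 43.8 (log2 fold change -1.41 ± 0.10, adjusted p 2.7e-14) and the kinase WEE1, which holds back entry into mitosis, from 45.3, 45.3 and 42.5 to 10.9, 8.65 and 14.5 (log2 fold change -1.96 ± 0.13, adjusted p 7.23e-15). Those that rose were the D-type cyclins CCND2, from no WT read to 1.12, 1.34 and 0.564 CPM, and CCND3, from 72.2, 68.6 and 73.6 to 83.4, 96.4 and 105 (log2 fold change 0.41 ± 0.09, adjusted p 0.000206).

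Repair by homologous recombination followed, with 24 of 32 genes lower and 3 higher. FANCD2, a central Fanconi protein, fell from 45, 44.1 and 40.6 CPM to 13.6, 11.8 and 12.5 (log2 fold change -1.77 ± 0.10, adjusted p 1.82e-16) and the checkpoint kinase CHEK1 from 42.7, 42.7 and 40.4 to 11.1, 14.4 and 17.5 (log2 fold change -1.54 ± 0.13, adjusted p 1.25e-12). EME1, a subunit of a junction-cutting nuclease, went against the list, from 37, 34.3 and 35.3 to 71.1, 68.1 and 74.6 (log2 fold change 1.00 ± 0.10, adjusted p 6.81e-11). Of 20 genes of the nuclear lamina and HMG proteins, 15 fell and 2 rose. LMNB1, the lamin whose loss is a known mark of senescence, fell from 147, 157 and 144 CPM to 45.2, 32.4 and 47.1 (log2 fold change -1.84 ± 0.15, adjusted p 3.09e-12), the lamin B receptor LBR from 91.6, 87 and 80.5 to 35.3, 27.4 and 34.3 (log2 fold change -1.42 ± 0.10, adjusted p 2.42e-14), and the lamina-associated TMPO from 233, 213 and 207 to 61.6, 52.2 and 65.7 (log2 fold change -1.86 ± 0.10, adjusted p 2.2e-17).

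Inhibitors of cyclin-dependent kinases moved in no common direction. 3 of the 8 rose and 3 fell. Besides the imprinted CDKN1C, CDKN2A, which encodes p16 and p14ARF, went from 92.2, 81 and 89.3 CPM to 108, 113 and 135 (log2 fold change 0.44 ± 0.11, adjusted p 0.00082). CDKN1A, the p21 gene and main p53 target of arrest, did not pass, at 268, 284 and 274 and 235, 266 and 306 (adjusted p 0.828), and the groups overlapped. CDKN2C, which encodes p18, fell from 22.8, 22.4 and 23.8 to 8.71, 10.1 and 11.8 (log2 fold change -1.17 ± 0.14, adjusted p 7.13e-09), and CDKN1B, which encodes p27, from 52, 47.8 and 48.4 to 35.1, 26.6 and 27.6 (log2 fold change -0.73 ± 0.10, adjusted p 1.67e-07). The offset for GC content and length ended the calls of CDKN2A (0.10, adjusted p 0.41) and CDKN1B (-0.21, adjusted p 0.0572). With that offset CDKN1A passed as lower (-0.54, adjusted p 0.000226), and over the inhibitors 1 rose and 4 fell. Of 39 p53 targets, 14 rose and 8 fell, with a median of 0.07, and with library size only 11 rose and 18 fell. GDF15, a stress cytokine, rose from 288, 283 and 274 to 1108, 1344 and 1630.0 (log2 fold change 2.27 ± 0.32, adjusted p 7.16e-07), and MDM2, which degrades p53, fell from 153, 156 and 136 to 101, 98.7 and 115 (log2 fold change -0.49 ± 0.09, adjusted p 9.04e-06), the offset for GC content and length giving 0.14.

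The BCL2 family was mixed. 8 of the 19 rose and 5 fell, and with the offset for GC content and length 5 rose and 8 fell. The proapoptotic BBC3 rose from 45.3, 44.6 and 46.4 CPM to 84.5, 112 and 84.9 (log2 fold change 1.05 ± 0.16, adjusted p 1.11e-06, but 0.23 and adjusted p 0.184 with that offset), the proapoptotic BCL2L11 fell from 39.5, 41.9 and 39.7 to 19.1, 19.3 and 17.8 (log2 fold change -1.11 ± 0.10, adjusted p 2.65e-11), and the protective MCL1 fell from 240.2, 225 and 218 to 136, 149.5 and 152 (log2 fold change -0.64 ± 0.07, adjusted p 7.51e-10).

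**Figure D4:**
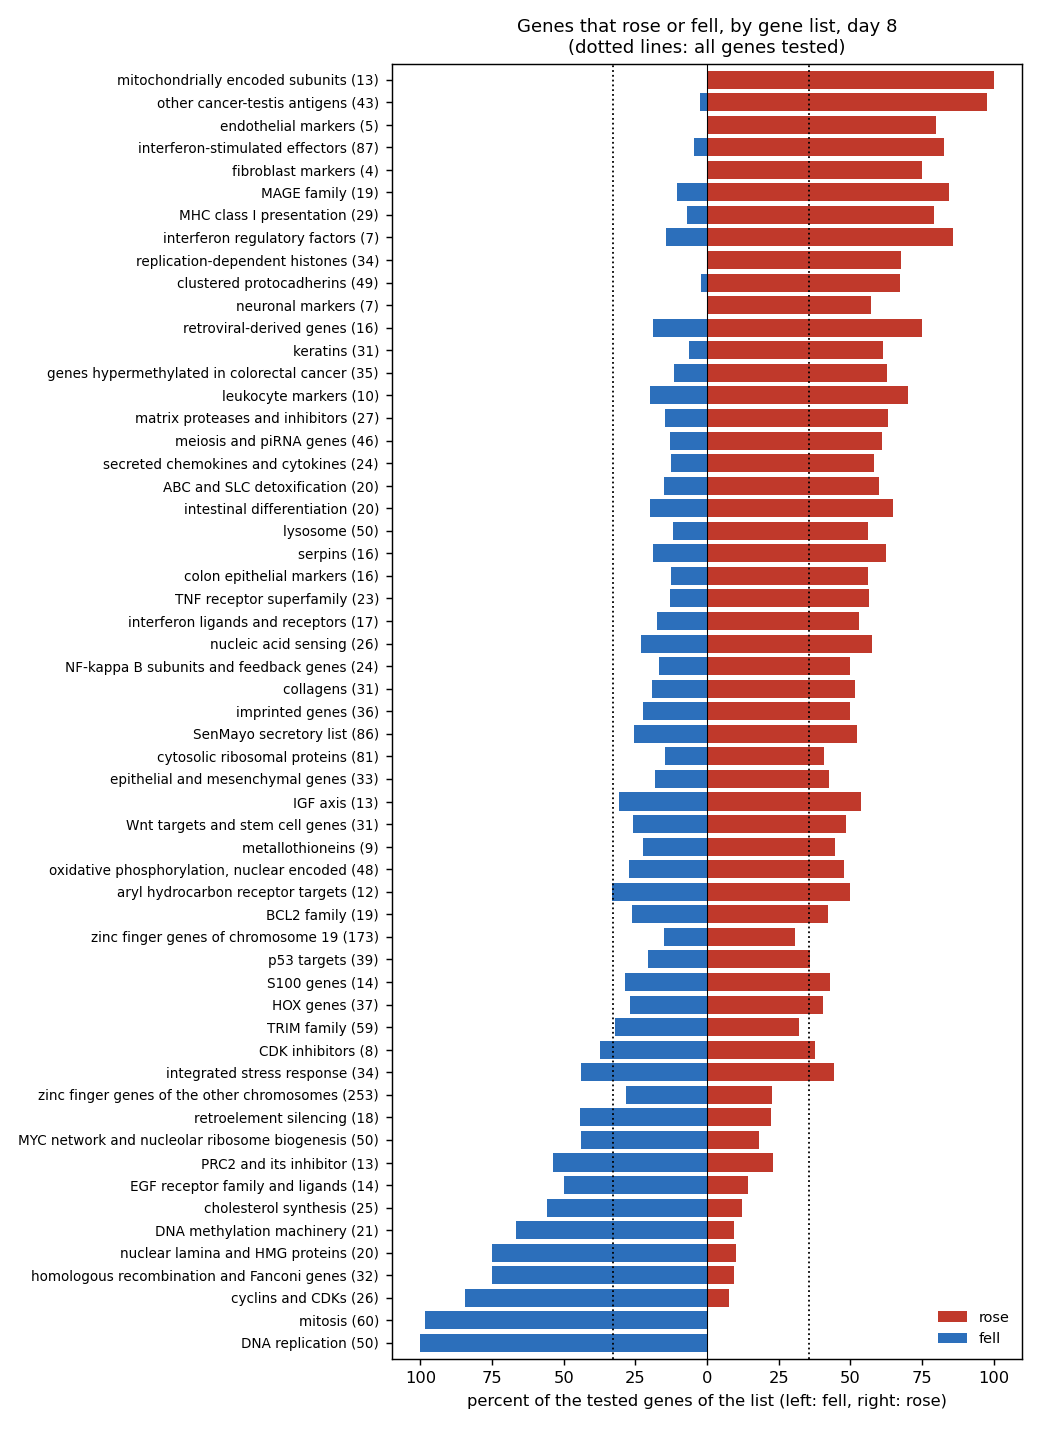
For each gene list, the percent of its tested members that rose (red, to the right) or fell (blue, to the left) at an adjusted p under 0.05 in UHRF1/DNMT1-AID against WT on day 8, with the number tested beside its name and lines at the shares over all genes tested (35.7% and 32.8%). Replication and mitosis lie almost wholly on the falling side and mitochondrially encoded subunits wholly on the rising side.

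Growth signals changed as well. In the EGF family, 2 of the 14 rose and 7 fell. AREG, a ligand of the EGF receptor, fell from 245, 215 and 236 CPM to 39.95, 27.8 and 47.5 (log2 fold change -2.59 ± 0.16, adjusted p 7.99e-15), and the feedback inhibitor ERRFI1 from 487, 475 and 479.7 to 122, 96.9 and 125 (log2 fold change -2.07 ± 0.18, adjusted p 4.11e-11). HBEGF, another ligand, rose from 7.19, 6.39 and 7.22 to 12.3, 10.9 and 12.3 (log2 fold change 0.77 ± 0.16, adjusted p 9.09e-05). The transcription factor MYC fell from 91.4, 98.7 and 91.8 to 40.6, 33 and 38.1 (log2 fold change -1.34 ± 0.16, adjusted p 9.87e-09), and of 50 genes of the MYC network and of nucleolar ribosome biogenesis 22 fell and 9 rose, among them the helicase DDX21, from 146, 139 and 135 to 54.5, 45.3 and 55.7 (log2 fold change -1.44 ± 0.10, adjusted p 1.95e-14).

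Among the genes of steepest fall, NT5E, the ectonucleotidase CD73 that makes adenosine, went from 164, 178 and 169 CPM to 12.9, 10.4 and 14 (log2 fold change -3.78 ± 0.29, adjusted p 2.17e-11). NRP1, a coreceptor of semaphorins and VEGF, went from 19.5, 21.7 and 20.1 to 0.866, 1.76 and 1.21 (log2 fold change -3.97 ± 0.72, adjusted p 3.15e-05), and PDE4B, which degrades cyclic AMP, from 127, 113 and 126 to 24.9, 13.6 and 18.2 (log2 fold change -2.7 ± 0.27, adjusted p 1.75e-09). These were falls of 13.7-fold, 15.7-fold and 6.49-fold. The genes of steepest fall were picked among those whose groups did not overlap, so the lack of overlap is no result. PRKDC, the catalytic subunit of the DNA-dependent kinase of end joining, fell from 299, 338 and 269 to 43.2, 31.3 and 53.9 (log2 fold change -2.82 ± 0.18, adjusted p 5.04e-14), and E2F8, an atypical E2F repressor, from 14.1, 15.5 and 15 to 2.6, 1.47 and 2.82 (log2 fold change -2.7 ± 0.21, adjusted p 3.86e-13). PXDN, a peroxidase of the basement membrane, was at 16.6, 17.2 and 15.2 CPM in WT and 0.306, 0.882 and 2.78 in UHRF1/DNMT1-AID (adjusted p 0.0066), the UHRF1/DNMT1-AID libraries differing among themselves more than those of the other genes.

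PUDP and its neighbour STS on the X chromosome (chromosome X, 6667865 to 7148158 and chromosome X, 7147237 to 7804358) had no read in UHRF1/DNMT1-AID on day 8, and STS was picked after its values were seen. PUDP, a pseudouridine phosphatase, was read at 23.6, 19.5 and 21.3 CPM in WT, which is 1579 reads, and STS, the steroid sulfatase, at 4.67, 4.95 and 4.49, which is 345 reads. With 3 reads as the floor, PUDP was at least 487-fold lower and STS at least 107-fold lower. UHRF1-AID had 1136 and 358 reads of the genes on day 8, and DNMT1-AID 1742 and 304. In UHRF1/DNMT1-AID they also had 0 reads each on day 2, and 1 and 0 reads on day 6, so the absence did not begin on day 8. The flanking genes were read in these libraries, with 704 reads of PNPLA4 against 1087 in WT, and 450 of VCX3A and 359 of VCX3B, both also chosen after their values were seen, against 0 in WT. No DNA was measured, so the state of these genes in the genome of this line was not tested.

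Of 44 listed genes of intestinal differentiation, 20 were tested, 13 rose and 4 fell, and 5 of those tested had 0 reads in WT. Without the filter, 19 rose and 5 fell among 40. The aminopeptidase ANPEP had 1 WT read and 10.6, 10.5 and 11.5 CPM in UHRF1/DNMT1-AID (ratio of reads 801, 95% counting interval 143 to 31686), and the trefoil peptide TFF2 went from no WT read to 9.99, 11.8 and 9.5 CPM, at least 257-fold higher (adjusted p 4.15e-12). CDX2, the transcription factor of intestinal identity, rose from 23.7, 25 and 23.6 CPM to 95.4, 154 and 85.8 (log2 fold change 2.21 ± 0.15, adjusted p 3.27e-14). CA2, carbonic anhydrase of colonocytes, fell from 13.3, 12.6 and 12.6 to 3.36, 4.41 and 1.97 (log2 fold change -1.98 ± 0.28, adjusted p 3.78e-07). Keratins rose in 19 of 31 and fell in 2, or without the filter 21 rose and 2 fell among 55. KRT17, a keratin of basal and wounded epithelium, was at 0.32, 0 and 0.202 and 24.1, 31.8 and 30.03 (log2 fold change 7.31 ± 0.40, adjusted p 1.66e-16), KRT23 at 35.9, 34.6 and 38.3 and 185, 192 and 243 (log2 fold change 2.51 ± 0.18, adjusted p 5.35e-13), and KRT18, of simple epithelium, at 803, 813 and 806 and 1882, 2132 and 2265 (log2 fold change 1.37 ± 0.11, adjusted p 4.27e-13).

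Of 31 Wnt targets and stem cell genes, 15 rose and 8 fell. NOTUM, a secreted enzyme that inactivates Wnt proteins, rose from 38.3, 34.8 and 39.1 CPM to 1229.6, 1678 and 1237 (log2 fold change 5.21 ± 0.31, adjusted p 1.17e-13), and NKD1, a feedback inhibitor, from 10.02, 11.4 and 11.8 to 30.4, 37.8 and 27.7 (log2 fold change 1.53 ± 0.15, adjusted p 1.32e-10). WNT11 rose from 1.01, 0.989 and 1.32 to 13.3, 15.9 and 11.8 (log2 fold change 3.6 ± 0.21, adjusted p 3.04e-16) and WNT16 fell from 85.6, 79.5 and 76.3 to 19.98, 20.4 and 21.3 (log2 fold change -1.97 ± 0.24, adjusted p 4.84e-08). Collagens rose in 16 of 31 and fell in 6, or without the filter 19 rose and 6 fell among 41. COL6A3 went from 0.0915, 0.045 and 0.202 to 16.1, 14.6 and 15.1 (log2 fold change 6.91 ± 0.38, adjusted p 2.34e-16) and COL12A1 from 47.1, 53.5 and 54.2 to 12.2, 7.56 and 11.5 (log2 fold change -2.31 ± 0.21, adjusted p 1.05e-10). Epithelial and mesenchymal genes were mixed, with 14 of 33 higher and 6 lower. TWIST1, a mesenchymal transcription factor, rose from 1.69, 1.48 and 2.56 to 11.5, 14.3 and 9.14 (log2 fold change 2.58 ± 0.23, adjusted p 6.19e-12), and ESRP1, an epithelial splicing factor, fell from 148, 153 and 143 to 90.8, 104 and 98.6 (log2 fold change -0.60 ± 0.08, adjusted p 9.35e-08).

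Some markers of cell types that an HCT116 culture does not hold also rose, while the sums of the leukocyte and neuronal lists did not. Of 18 leukocyte markers, 10 were tested, 7 rose and 2 fell. Their summed level was 35.6 to 47.5 CPM over WT and 35.9 to 39.6 CPM over UHRF1/DNMT1-AID. The 2 that fell were CD68, from 2428 reads over WT to 1184 over UHRF1/DNMT1-AID, and ITGAX, from 632 to 182. TYROBP, a signalling adaptor of myeloid cells, had no WT read and 7.29, 13.4 and 6.2 CPM, and CD3D, of the T cell receptor, no WT read and 1.99, 1.81 and 2.25 CPM. The defining markers CD3G and NKG7 had 0 reads in both groups, and PTPRC, which marks all leukocytes, had 1 read in WT and 29 in UHRF1/DNMT1-AID. Of 10 fibroblast markers, 4 were tested and 3 rose, from 19.5 to 23.5 to 45.9 to 69.1 CPM in sum, with THY1 from no WT read to 14.2, 24.7 and 12.2 CPM while POSTN had 0 reads in both groups and DCN 3 and 8. Of 10 endothelial markers, 5 were tested and 4 rose, from 11 to 12.6 to 21.9 to 33.6 CPM, with ERG and EMCN at 0 reads in both groups and CDH5 at 0 and 3. Of 12 neuronal markers, 7 were tested and 4 rose, with NEFH from no WT read to 12.7, 14 and 7.45 CPM and ELAVL4 at 0 in both. The sum over the 7 was 364 to 396 CPM in WT and 348 to 383 CPM in UHRF1/DNMT1-AID. TUBB3 alone had 24370 reads over WT and 20973 over UHRF1/DNMT1-AID.

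Transcripts of the mitochondrial genome rose as a block. All 13 mitochondrially encoded subunits of oxidative phosphorylation rose, each by more than 2-fold, from 25693 to 34373 CPM in sum over the WT libraries to 80472 to 112710.0 CPM over UHRF1/DNMT1-AID. MT-CO1, of cytochrome oxidase, went from 5400.5, 6592 and 6551 to 25253, 28810.0 and 19388 (log2 fold change 1.99 ± 0.28, adjusted p 5.14e-07). The mitochondrial share of all reads was 2.87% to 3.73% in WT and 7.72% to 10.8% in UHRF1/DNMT1-AID. The 48 nuclear-encoded subunits did not move together, since 23 rose and 13 fell, or with library size only 16 rose and 16 fell. COX6B1 rose from 94.8, 99.6 and 99.6 CPM to 218, 215 and 231 (log2 fold change 1.18 ± 0.10, adjusted p 2.17e-12) and UQCRC2 fell from 143, 141 and 145 to 63.9, 62.6 and 69.1 (log2 fold change -1.13 ± 0.08, adjusted p 2.02e-14). When the mitochondrial genes were left out before scaling, replication still counted 0 rose and 50 fell, and interferon-stimulated effectors 72 rose and 4 fell.

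Replication-dependent histone genes, whose mRNAs normally lack a poly(A) tail, rose in 23 of 34 and fell in 0, but with the offset for GC content and length 15 rose and 4 fell. H1-2 went from 17.5, 17 and 18.8 CPM to 83.6, 113 and 117 (log2 fold change 2.56 ± 0.26, adjusted p 2.94e-09). The libraries were made from polyadenylated RNA, so these values count the polyadenylated form. Cytosolic ribosomal protein genes rose in 33 of 81 and fell in 12, a split that turned with library size only, where 21 rose and 30 fell. RPL28 rose from 837, 902 and 918 to 1646, 1604 and 1864 (log2 fold change 0.94 ± 0.08, adjusted p 2.13e-12) and RPL21 fell from 333, 295 and 313 to 128, 117 and 179 (log2 fold change -1.15 ± 0.11, adjusted p 3.45e-11).

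Lysosomal genes rose in 28 of 50 and fell in 6. Fewer, 3, fell without UHRF1/DNMT1-AID replicate 2 or without WT replicate 2, and with library size only 22 rose and 12 fell. The protease LGMN rose from 104, 109.8 and 97.3 CPM to 345, 404 and 320.4 (log2 fold change 1.78 ± 0.13, adjusted p 3.44e-13) and CTSD, cathepsin D, from 343, 354 and 351 to 607, 719 and 707 (log2 fold change 0.96 ± 0.07, adjusted p 3.11e-13). GLB1, which encodes the beta-galactosidase stained in senescent cells, was at 65.6, 70.6 and 63.7 and 73.8, 72.1 and 76.2 and did not pass (adjusted p 0.0543). It passed as higher with DESeq2 (0.21, adjusted p 0.00528), RLE scaling (adjusted p 0.00995), a minimum count of 50 (adjusted p 0.011), the offset for GC content and length (adjusted p 0.0319), the comparison libraries only (adjusted p 0.0473) and without WT replicate 2 (adjusted p 0.0336). Cholesterol synthesis fell in 14 of 25 and rose in 3, with FDPS, which makes farnesyl diphosphate, falling from 102, 102 and 106 CPM to 64.7, 66.2 and 76.5 (log2 fold change -0.58 ± 0.08, adjusted p 2.83e-08).

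Stress programmes were mixed. Of 34 genes of the integrated stress response, 15 rose and 15 fell, ATF5 going from 52.9, 56.2 and 55.7 CPM to 172, 196 and 161 (log2 fold change 1.68 ± 0.11, adjusted p 9.47e-15) and the amino acid transporter SLC38A2 from 589.6, 573 and 565 to 271, 265 and 274 (log2 fold change -1.09 ± 0.11, adjusted p 1.5e-10). Of 12 targets of the aryl hydrocarbon receptor, which auxin can activate, 6 rose and 4 fell, or with library size only 4 rose and 4 fell, although both groups received auxin. CYP1A1 rose from 5.45, 6.97 and 6.31 to 35.3, 46.9 and 35.7 (log2 fold change 2.65 ± 0.30, adjusted p 1.28e-08), and TIPARP, a target that restrains the receptor, fell from 142, 141 and 146 to 72.6, 73.9 and 74.2 (log2 fold change -0.96 ± 0.11, adjusted p 1.66e-09). Metallothioneins, which bind metals, rose in 4 of 9 and fell in 2, and transporters and enzymes of detoxification rose in 12 of 20 and fell in 3. SULT1A1, a sulfotransferase, rose from 5.17, 3.96 and 5.09 to 77.5, 74.9 and 77 (log2 fold change 4.01 ± 0.17, adjusted p 1.1e-18). Serpins rose in 10 of 16 and fell in 3, led by the complement inhibitor SERPING1, from 12.4, 13.6 and 15.2 to 64.7, 65.4 and 32.6 (log2 fold change 1.98 ± 0.26, adjusted p 1.3e-07), with replicate 3 lowest. S100 genes, which the symbol pattern extended to the binding protein gene S100PBP, rose in 6 of 14 and fell in 4, and TRIM ubiquitin ligases in 19 and 19 of 59. With the offset for GC content and length, 3 rose and 3 fell of the metallothioneins, 5 rose and 5 fell of the S100 genes and 24 rose and 14 fell of the TRIM genes.

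To see how far the loss of both proteins exceeded the loss of 1, UHRF1/DNMT1-AID was compared directly with the single lines on day 8. Against UHRF1-AID, 1009 genes were higher, 6.55% of those tested, and 269 lower, 1.75%, so that 79.0% of the calls were upward, or 67.8% with library size only. Against DNMT1-AID, 1494 genes were higher (9.69%) and 277 lower (1.8%). The same 3 UHRF1/DNMT1-AID libraries enter both comparisons and the one with WT, so their counts are not independent.

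Cancer-testis antigens outside the MAGE family were higher than in UHRF1-AID in 36 of 43 and higher than in DNMT1-AID in 39. The MAGE family was higher in 5 and 13 of 19, and meiosis and piRNA genes in 20 and 25 of 46. None of these lists held a gene counted as lower. Of the tested members, 26 of the 43, 11 of the 19 and 11 of the 46 had no WT read. Such members passed the filter only through groups in which they were read, UHRF1/DNMT1-AID among them. The counts can therefore follow in part from the filter. The copies RHOXF2 and RHOXF2B, homeobox genes of the testis, had 0.283, 0.33 and 0.293 and 0.743, 0.11 and 0.195 CPM in UHRF1-AID, 0, 0.128 and 0 and 0.0304, 0.128 and 0 in DNMT1-AID, and 7.19, 9.15 and 12.8 and 8.26, 8.31 and 12.7 in UHRF1/DNMT1-AID. RHOXF2 thereby differed from UHRF1-AID by 4.99 ± 0.42 on the log2 scale, adjusted p 8.97e-10. PRR20G was at 43.6, 38.8 and 68.2 CPM in UHRF1/DNMT1-AID, against 2.55, 3.49 and 2.02 in UHRF1-AID and 7.07, 9.25 and 7.89 in DNMT1-AID (4.23 ± 0.28 on the log2 scale, adjusted p 7.52e-12, against UHRF1-AID). PCSK1N, an inhibitor of prohormone processing, was at 4.99, 6.2 and 4.46, 0.0607, 0.556 and 0.407 and 25.8, 28.7 and 23.1 (6.36 ± 0.45 on the log2 scale, adjusted p 1.16e-11, against DNMT1-AID).

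Interferon-stimulated effectors were higher than in UHRF1-AID in 19 of 87 and higher than in DNMT1-AID in 21, and none was lower by that call. IFITM1 was at 1929, 3103 and 1826 CPM in UHRF1-AID and 2243, 1892 and 2219 in DNMT1-AID, below the UHRF1/DNMT1-AID libraries, and differed from UHRF1-AID by 1.09 ± 0.19 on the log2 scale, adjusted p 5.64e-05 and from DNMT1-AID by 1.2 ± 0.20 on the log2 scale, adjusted p 1.43e-05. Secretory lists did not go one way. Of the 24 chemokines and cytokines, 4 were higher and 4 lower than in UHRF1-AID, and 4 higher and 2 lower than in DNMT1-AID. Of the 86 SenMayo genes, these counts were 6 and 7, and 18 and 8. MMP1 was at 21.3, 5.87 and 13.6 CPM in UHRF1-AID against 4.59, 6.89 and 6.12 in UHRF1/DNMT1-AID, and IGFBP3 at 25, 6.79 and 40.2 against 7.95, 7.94 and 6.92. Replication genes were lower than in UHRF1-AID and DNMT1-AID in 3 and 3 of 50. MCM7 was at 222, 155 and 193 CPM in UHRF1-AID and 218, 207 and 199 in DNMT1-AID, and differed from UHRF1-AID by -0.85 ± 0.09 on the log2 scale, adjusted p 1.54e-08 and from DNMT1-AID by -0.98 ± 0.09 on the log2 scale, adjusted p 5.84e-10. ETV1, an ETS transcription factor, was at 56.2, 15.7 and 49.9 in UHRF1-AID against 7.44, 6.76 and 9.62 in UHRF1/DNMT1-AID (-2.35 ± 0.45 on the log2 scale, adjusted p 0.000178). ACSL5, a fatty acyl-CoA synthetase, was at 219, 238 and 142 in DNMT1-AID, 135, 131 and 127 in WT and 46.8, 32.8 and 45.7 in UHRF1/DNMT1-AID (-2.26 ± 0.23 on the log2 scale, adjusted p 1.87e-08, against DNMT1-AID).

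The effect on day 8 was then set against the effect on day 6, each relative to the WT of its own day. The difference was positive for 580 genes (3.76% of those tested) and negative for 401 (2.6%), which is 59.1% positive, but only 27.5% with library size only, where the values moved by a median of -0.232. In the mitosis list, 49 of 60 genes were more negative on day 8 and 0 more positive. The summed level of the mitosis genes was 4524 CPM in the day 6 WT and 5098 CPM in the day 6 UHRF1/DNMT1-AID libraries, against 4359 and 1829.6 CPM 2 days later. It had been 3798 CPM in WT and 2826 CPM in UHRF1/DNMT1-AID on day 2, so the double degron line was also lower then. Of the replication genes 16 and of the cyclins and kinases 12 were more negative, while 19 of 49 protocadherins and 12 of 13 mitochondrially encoded genes were more positive. Protocadherins of the gamma cluster share exons, as above.

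Among single genes that differed between the days, PDCD1, which encodes the immune checkpoint receptor PD-1, was at 0.102 ± 0.0556 CPM (SD, n = 3) in the WT and 7.49 ± 0.964 in the UHRF1/DNMT1-AID libraries of day 6, whereas day 8 had no WT read and 20.8 ± 0.91 CPM. RCN3, a calcium-binding protein of the secretory pathway, went from 18.6 ± 1.36 CPM in the day 6 to 53.7 ± 8.66 CPM in the day 8 UHRF1/DNMT1-AID libraries (3.44 ± 1.13 on the log2 scale, adjusted p 0.0178), and part of this value comes from WT, which stood at only 0.13 ± 0.192 CPM on day 6 and 2 reads in all on day 8. ALPG, a placental-like alkaline phosphatase of germ cells, was at 18.7 ± 2.87 and 50.5 ± 11.5 (3.38 ± 1.04 on the log2 scale, adjusted p 0.0137), with WT at 0.419 ± 0.215 on day 6 and 0.114 ± 0.0613 on day 8, so that the WT level enters this value too. FAM83D, which recruits a casein kinase to the spindle, was at 60.7 ± 0.766 CPM in the WT and 81.4 ± 6.04 in the UHRF1/DNMT1-AID libraries of day 6, against 68 ± 4.16 and 15.9 ± 1.97 for day 8 (-2.52 ± 0.17 on the log2 scale, adjusted p 1.16e-12). Of the 87 interferon-stimulated effectors, 8 were more positive and 1 more negative on day 8. Their sum was 3626 CPM in WT on day 2, 12178 on day 6 and 12438 on day 8, so the WT level itself was not constant, and 4329, 22555 and 42449 CPM in UHRF1/DNMT1-AID.

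**Figure D5:**
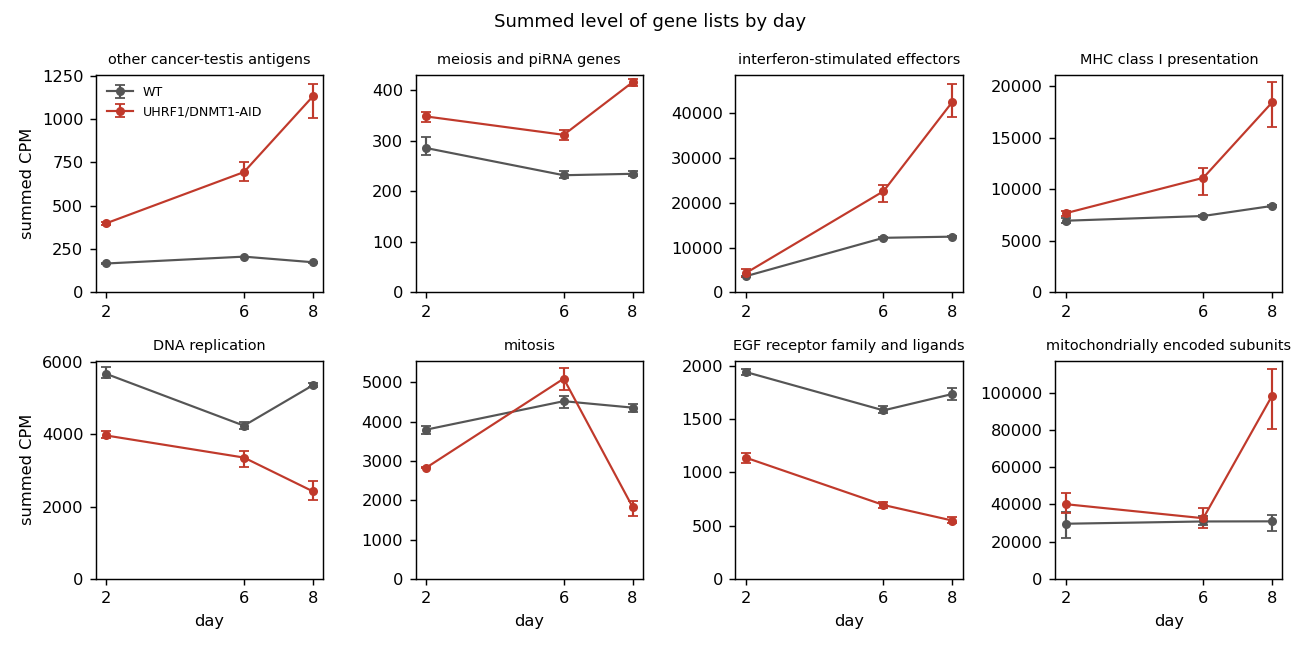
Summed CPM of gene lists (vertical axes, 1 panel per list) in WT (grey) and UHRF1/DNMT1-AID (red) on days 2, 6 and 8 (horizontal axes), with points at the mean of 3 libraries and bars from the lowest to the highest. The mitosis genes of UHRF1/DNMT1-AID stand at 5098 CPM against 4524 in WT on day 6 and at 1830 against 4359 on day 8.

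Long noncoding RNAs, which lay outside the genes above, were fitted with all gene types. Of 4594 tested, 859 were up in UHRF1/DNMT1-AID against WT on day 8, which is 18.7%, and 801 were down, which is 17.4%.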

How the data were processed

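RNA-seq libraries of polyadenylated RNA were analysed from the raw gene counts deposited by the authors, who, per the labels, aligned to hg38 with STAR and counted with featureCounts. The annotation release, strand setting and treatment of reads matching several places are not given in the sources used here, so near-identical, overlapping and antisense genes are uncertain. IDs were paired with GENCODE v44. Counts of protein-coding genes were filtered (filterByExpr, minimum count 10, 15415 of 19942 kept), normalised by TMM and modelled in 1 fit of 36 libraries in 12 groups by the quasi-likelihood method of edgeR 4.0.16, made robust and with 24 residual degrees of freedom, two-sided, with Benjamini-Hochberg adjustment within a comparison. Long noncoding RNAs were tested in a fit with all gene types. The floor was 3 reads over a group (0.0407 CPM in WT, 0.0439 CPM in UHRF1/DNMT1-AID), and counting intervals are exact at 95%, without biological error. Scripts were tested on simulated data. The 36 libraries hold 21074536 to 37175136 reads, and low genes carry the largest error.

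Genes were named by rule: UHRF1, DNMT1 and genes the study discusses; the 15 highest and 15 lowest changes at a mean of at least 5 CPM with no overlap; from each of 57 lists the members with the lowest p, at most 4 on the side of the median and 2 on the opposite side; and 5 highest and 5 lowest of each further comparison. The lists and members were chosen with earlier results of these data known. Same-numbered libraries did not pair, since their deviations correlated at 0.0108, 0.0363 and 0.0000828. Alternatives covered DESeq2, normalization, filters, glmTreat, an offset for GC content and length, the replicate block and leaving out each library.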

Additional observations from a re-analysis of the deposited data

Results flagged for a closer look

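The direct comparisons of lines tested the difference between 2 effects against WT. UHRF1/DNMT1-AID exceeded UHRF1-AID on day 8 at 1009 genes and lay below it at 269, and it exceeded DNMT1-AID at 1494 and lay below it at 277. Between the effects of day 8 and day 6, 580 genes differed in the positive and 401 in the negative direction.

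Among the genes read well enough to be named, the positive differences between the days had their highest fitted log2 values at PDCD1 (5.84), RCN3 (3.44), ALPG (3.38), the tubulin TUBA3D (3.28) and APOBEC3G (2.95). All 5 rest on WT values near 0, PDCD1 having 0 WT reads on day 8, so these values depend on the prior count and their order is not firm. RCN3 was at 0.13 ± 0.192 CPM in WT on day 6 and 0.0265 ± 0.0237 on day 8, ALPG at 0.419 ± 0.215 and 0.114 ± 0.0613, TUBA3D at 0.192 ± 0.0326 and 0.0112 ± 0.0195, and APOBEC3G at 0.38 ± 0.204 and 0.0977 ± 0.0907. APOBEC3G was at 15.3 ± 3.11 CPM (SD, n = 3) in the day 6 libraries of UHRF1/DNMT1-AID and 34.4 ± 8.81 in those of day 8, and TUBA3D, whose level there was not higher on day 8, at 21.2 ± 5.61 and 19.4 ± 5.16. The most negative were ENSG00000273167 (-3.07), the readthrough ARHGAP19-SLIT1 (-2.60), FAM83D (-2.52), the apolipoprotein gene APOM (-2.35) and ENSG00000288646 (-2.30). APOM was at 21.4 ± 0.613 CPM in the WT and 17.2 ± 1.2 in the UHRF1/DNMT1-AID libraries of day 6, against 22.6 ± 1.59 and 3.55 ± 0.506 for day 8. Readthrough genes share exons with their neighbours, so their separate values are uncertain.

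Outside the protein-coding genes, 859 long noncoding RNAs were up and 801 down in UHRF1/DNMT1-AID against WT on day 8. No group had enough libraries for a test of single outlying samples.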

How the results depend on the processing

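Against WT, the genes up numbered 1663 with a minimum count of 50, where fewer genes were tested, and the genes down numbered 1878 with glmTreat against 1.5-fold, 1851 with library size only and 2296 with all gene types. Against UHRF1-AID, 624 genes were up with glmTreat and 557 with a minimum count of 50, and 405 were down with library size only and 835 with all gene types. Against DNMT1-AID, 794 were up with a minimum count of 50 and 751 down with all gene types. For day 8 minus day 6, positive genes numbered 239 with glmTreat, 294 with library size only, 927 with all gene types and 378 with the offset for GC content and length, and negative genes 777 with library size only and 1054 with all gene types. The share of positive calls there was 59.1%, against 41.1% with glmTreat and 46.8% with all gene types, and against UHRF1-AID and DNMT1-AID it was 63.3% and 73.9% with all gene types. The glmTreat counts were taken at an adjusted p under 0.05 without the 2-fold limit of the other counts. The fit with all gene types tested 22454 genes, noncoding ones included. How much of each shift comes from this was not tested. Leaving out 1 library at a time kept these counts within 1.5 times, from 2547 to 2701 up and from 1091 to 1259 down against WT. DESeq2 gave 2749 up and 1060 down. A replicate block gave 2608 and 1183 against WT, 1022 and 263 against UHRF1-AID, 1500 and 277 against DNMT1-AID, and 588 and 397 for the difference of days. The numbers do not pair the samples.

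With the offset for GC content and length, the log2 fold change against WT changed sign for BAD (-0.39), BAK1 (-0.075), BANF1 (-0.30), CDKN2D (-0.43), GAPDH (-0.60), IFNAR1 (0.00023), IGFBP6 (-0.31), MDM2 (0.14), MIF (-0.17), RB1 (0.10), SPAG9 (0.23), TM7SF2 (-0.34), UBE3A (0.0027) and ZMAT3 (0.041), and with library size only for USP7 (-0.026). Of the 365 named genes, 61 no longer passed with glmTreat and 26 with the offset, and 6 more passed with the offset in the opposite direction.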

Other observations

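Long noncoding RNAs of both directions were read well on day 8. MEG3 (ENSG00000214548.18, chromosome 14, 100779410 to 100861031), the imprinted noncoding RNA of the DLK1 locus, had no read in WT and 11.7, 9.55 and 9.34 CPM in the UHRF1/DNMT1-AID libraries (adjusted p 2.05e-10, edgeR quasi-likelihood). LINC00958 had 1 read over the WT libraries and 13.4, 16.5 and 14.5 CPM in UHRF1/DNMT1-AID. LINC02972 was at 0.214, 0 and 0.126 CPM in WT and 18, 31.2 and 28.2 in UHRF1/DNMT1-AID (log2 fold change 7.77 ± 0.57, adjusted p 1.32e-12). ENSG00000228318, on chromosome 21, was at 0.513, 0.712 and 1.41 and 130.5, 163 and 116 (log2 fold change 7.2 ± 0.36, adjusted p 3.68e-15). VIM-AS1 and KRT7-AS varied between the UHRF1/DNMT1-AID libraries, at 7.12, 4.13 and 20.9 CPM and 10.8, 14.6 and 34.2 CPM, with replicate 3 the highest of both. Among those that fell, HIF1A-AS1 went from 20.9, 19.6 and 19.6 CPM to 2.72, 3.47 and 1.13 (log2 fold change -3.05 ± 0.26, adjusted p 5.32e-11) and PRR11-AS1 from 12.6, 10.5 and 10.3 to 2.06, 1.05 and 2.03 (log2 fold change -2.7 ± 0.25, adjusted p 7.64e-12). Antisense RNAs overlap their partner genes, and without a stated strand setting reads of the partners cannot be told apart.

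Besides PUDP and STS, 6 genes among those that passed the filter on low counts had WT reads and none in UHRF1/DNMT1-AID on day 8. They were C11orf42, MMP7, LAIR1, IQCF1, FAM180A and DNAJC5B, with 15 to 35 reads over the WT libraries, and all but MMP7 were picked after their values were seen. With a floor of 3 reads these were from 4.63-fold to 10.8-fold lower at least.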
